A study of Mus musculus with 4 samples.

Results

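The cells described here are the ear cartilage chondrocytes of the 2 skin libraries, selected on their own counts by a fixed rule. A member barcode had at least 200 detected genes, at most 10% of its unique molecular identifiers (UMIs, counted RNA molecules) from mitochondrial genes, and at least 3 UMIs of Acan, Col2a1, Col9a1 and Sox9 together with at least 1 of Acan or Col2a1. It also had under 1% of its UMIs from the keratins Krt5 and Krt14 and none of the leukocyte gene Ptprc. The rule found 290 members among 17546 kept barcodes of the 4 libraries, 9615 of them from skin. The control skin library held 140 members of 5334 kept barcodes, or 2.62% (exact 95% binomial interval 2.21 to 3.09), and the EBA skin library 150 of 4281, or 3.50% (2.97 to 4.10). Neither blood library held a member. The upper bound of the exact 95% interval was 0.0817% of 4512 kept barcodes in control blood and 0.108% of 3419 in EBA blood. With exactly 3 UMIs of the 4 chondrocyte genes stood 7 control and 8 EBA members, and 10 and 12 barcodes with 2 UMIs lay just outside.

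The study used C57BL/6J mice of 6 to 8 weeks. The EBA group, a model of the blistering disease epidermolysis bullosa acquisita, received 250 µg of antigen-affinity-purified rabbit IgG against the vWFA2 part of type VII collagen, 3 times per week for 2 weeks. The control group, called IgG here, received control rabbit IgG. Cells of 3 mice were pooled per group and tissue, so there is 1 library per group and no replicate. No test between conditions was possible, and every interval below covers counting error only. Skin came from ears and was digested with enzymes, so cartilage cells entered only as far as that digestion freed them.

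Elastic cartilage stiffens the outer ear. Its chondrocytes lie in a gel of aggrecan and fibrils of type II, IX and XI collagen, and, unlike those of joint cartilage, they also lay down elastic fibres, made of elastin that lysyl oxidase cross-links on a scaffold of fibrillins and fibulins. Chondrocytes carry receptors for inflammatory cytokines and can secrete mediators, proteases and protease inhibitors.

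The label was checked against cartilage genes that the rule did not use, and it held for only some of the members. A set of 7 such genes, Col9a2, Col9a3, Col11a2, Hapln1, Cytl1, Cnmd and Snorc (3110079O15Rik in the files), was used, with the limit set after the data had been seen. They made up 0.1% or more of the UMIs in 79 of 140 IgG members (56.4%, 47.8 to 64.8) and 101 of 150 EBA members (67.3%, 59.2 to 74.8). These are called cartilage-gene members below. Between 0.05% and 0.2% lay 11 IgG and 5 EBA members. A clustering of all kept skin barcodes, made without the rule genes and the gene lists, put 75 of the 79 and 98 of the 101 cartilage-gene members into a single cluster, with 7 and 14 of the remaining members. That cluster held 160 IgG and 146 EBA barcodes in all, so it also took in barcodes that the rule left out. With the cluster in place of the rule, 144 of 368 higher and 116 of 371 lower calls over all members were shared.

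Most of the remaining members, 61 IgG and 49 EBA, carried much type I and III collagen RNA. The median was 3.06% of UMIs in IgG (quartiles 1.73 and 4.1) and 1.76% in EBA (quartiles 0.088 and 3.06). In the cartilage-gene members it was 0.226% in IgG and 0.16% in EBA, so the lower EBA quartile of the remaining members lay under that median. In the remaining members, 7 of 8 fibroblast markers in IgG and 8 in EBA reached 10 CPM (UMIs scaled to a sum of 1000000 per library). So did 10 of 20 chondrocyte markers in each library. The cartilage-gene members reached it for 7 fibroblast and 19 chondrocyte markers in each library. The fibroblast count thus does not part the groups. The chondrocyte markers summed to 24252 CPM in EBA and 13375 in IgG cartilage-gene members, against 1182 and 1840 in the remaining members. For the remaining members the label does not hold. They are called the collagen I members, although not all EBA cells among them carried much type I and III collagen RNA. Values below are for the cartilage-gene members unless another group is named, and a pair of values gives EBA first and IgG second. Of chondrocyte markers that neither choice used, the matrix protein Comp stood at 494 and 809 CPM in these cells, Scrg1 at 5.17 and 4.55, the matrilins Matn3 at 82.1 and 131 and Matn4 at 76.3 and 79.7, Chad at 995 and 722, and the transcription factors Sox5 at 84.7 and 81.9 and Sox6 at 60.8 and 56.9. In the other kept skin barcodes Comp stood at 4.91 and 5.59 and Chad at 7.17 and 8.34. The 5 endothelial markers summed to 2.59 CPM in EBA and 0 in IgG, and the melanocyte and mast cell markers to 0 in both.

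**Figure D1:**
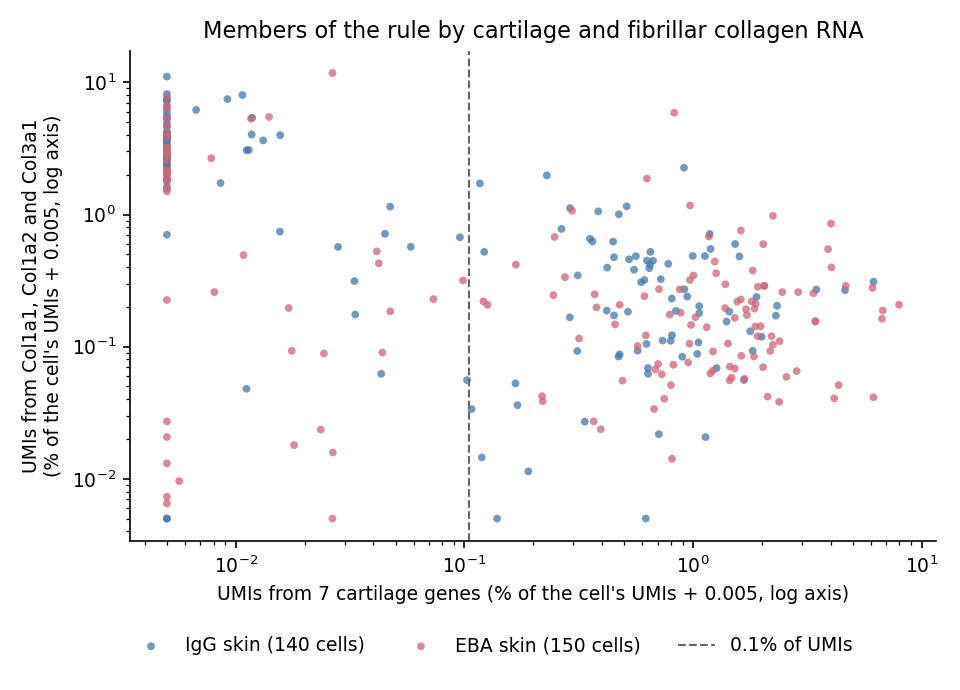
Each point is 1 member barcode, 140 from IgG skin and 150 from EBA skin. The x axis gives the share of its UMIs from 7 cartilage genes and the y axis the share from type I and III collagen genes, both in percent plus 0.005 on log axes; 79 IgG and 101 EBA cells lie at or above 0.1% on the x axis.

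Genes that marked the cartilage-gene members off from the other kept skin barcodes are given as a description, since the same counts chose the cells. Msmp, a small secreted protein, stood at 464 and 322 CPM, against 0.493 and 0.166 in the other barcodes. Wif1, a secreted Wnt inhibitor, stood at 1757 and 2040.5 CPM, against 9.75 and 13.7. An unnamed protein-coding gene, 1520401A03Rik (chromosome 17, 23704488 to 23722783, minus strand, mm10), stood at 8145 and 1844 CPM, against 2.82 and 0.559. All 3 were far lower outside the cartilage cells in both libraries. Promoter windows from RefSeq (GRCm38.p6, 250 bases before to 50 after each start) were found for all 16 genes looked up.

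The windows of 3 genes are printed as examples of matrix and inhibitor genes described below, chosen after their values were seen: Col10a1, the collagen of mature cartilage cells, Col9a2, a chain of the collagen that coats type II fibrils, and Serpina3n, a protease inhibitor. The 250 bases before the start are shown in lower case, 5′ to 3′ on the gene's strand. Capitals mark ACAAAG (letters that SOX proteins can bind), TATAAA (the TATA box) or GGG, any 2 bases and TTTCC (letters of NF-kB sites), each searched on both strands.
Col10a1, chr10:34389731-34389980, plus strand: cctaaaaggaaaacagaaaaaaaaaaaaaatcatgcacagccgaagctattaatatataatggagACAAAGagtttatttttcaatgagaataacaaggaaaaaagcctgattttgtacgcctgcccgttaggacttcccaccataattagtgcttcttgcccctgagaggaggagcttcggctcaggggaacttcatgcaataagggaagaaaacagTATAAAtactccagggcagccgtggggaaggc
Col9a2, chr4:121039316-121039565, plus strand: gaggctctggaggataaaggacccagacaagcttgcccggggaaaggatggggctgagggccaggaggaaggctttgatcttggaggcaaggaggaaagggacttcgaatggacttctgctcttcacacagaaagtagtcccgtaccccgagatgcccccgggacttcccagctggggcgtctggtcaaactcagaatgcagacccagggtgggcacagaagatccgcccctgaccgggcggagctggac
Serpina3n, chr12:104406458-104406707, plus strand: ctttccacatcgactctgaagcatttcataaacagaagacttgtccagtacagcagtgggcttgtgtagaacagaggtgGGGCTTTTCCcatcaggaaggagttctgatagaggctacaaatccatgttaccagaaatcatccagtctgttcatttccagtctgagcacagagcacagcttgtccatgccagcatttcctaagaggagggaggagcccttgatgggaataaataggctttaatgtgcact
In the Col10a1 window, ACAAAG begins at -185 and TATAAA at -32 from the start. In the Serpina3n window the NF-kB letters begin at -171. The Col9a2 window holds none of these, nor TGACTCA, the AP-1 letters. Over 32851 promoter windows of the same length, ACAAAG was found in 18.7%, TATAAA in 13.6%, TGACTCA in 5.2% and the NF-kB letters in 1.63%. Hapln1, Cnmd, Cytl1, Acan, Msmp, Lcn2, Timp4, Csf2 and Chil1 held none of the 4 motifs either. Col11a2, Wif1, C3 and Igfbp6 held TATAAA only, in C3 after the start. Among all genes looked up, Serpina3n alone held the NF-kB letters, and the other inhibitor and inflammatory genes lacked them.

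For the comparison of EBA with IgG, UMIs were summed over the cells of each library. The sums rest on 1547147 UMIs in EBA (median 10771 per cell) and 878715 in IgG (median 8267). A gene counted as measured with at least 10 UMIs over both sums and 10 CPM in the higher one. It is called higher or lower in EBA below where the CPM differed at least 2-fold and the 95% interval of the ratio left out 1. Parentheses after a pair of levels give that ratio, EBA over IgG, or for lower genes the fold by which IgG exceeded EBA, with its interval. Among 8046 measured genes 285 were higher (3.54%) and 461 lower (5.73%). The median log2 ratio of all genes was -0.14, and relative to that median 420 were higher and 322 lower. Of 70 named genes with a call, keratin and haemoglobin genes left out, 62 kept it when the cell with most UMIs of the gene was left out of each library, and 48 when every cell had the same weight. In all 16 alternatives 21 kept it: Eln, Lox, Nid2, Col2a1, Col9a2, Col10a1, 1520401A03Rik, C3, C4b, Lcn2, Serpina3n, Timp4, Tgm2 and Angptl4 (higher), and Igfbp5, Igfbp6, Cilp2, Wfdc2, Angptl7, Itgbl1 and Lyz2 (lower). Among them Col2a1 and Col9a2 helped choose the cells, so their calls are description only.

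RNA of other cell types differed between the groups too. The 4 haemoglobin genes summed to 2152 CPM in EBA and 20.5 in IgG, with 91% of the EBA Hbb-bs UMIs in 1 cell, and to 14133 and 117 in the other kept barcodes. The 5 neutrophil markers summed to 184 and 11.4 CPM, and the 8 keratinocyte markers to 3060.5 and 1866. The keratinocyte markers went both ways. Krt5 (16.2 and 196 CPM), Krt14 (86.6 and 377) and Krt15 (0.646 and 294) stood lower in EBA. Krt1 (241 and 14.8), Krt10 (1681 and 443), Dsp, Perp and Sfn stood higher. The 5 macrophage markers summed to 16.2 CPM in EBA and 348 in IgG, where 1 cell held 86.7% of the UMIs of the lysozyme gene Lyz2. Free RNA was estimated at 9.47% of UMIs in EBA and 6.95% in IgG in these cells, and at 31.5% and 8.82% over all 290 members. The estimate came from summed Krt1, Krt5, Krt10, Krt14 and Krt15, so a few keratin-rich cells raise it. In the other kept barcodes Krt5 stood at 819 and 1151 CPM, Krt14 at 4722 and 4238 and Krt15 at 91.4 and 932. Relative to these levels, the cartilage-gene members held less of Krt5, Krt14 and Krt15 in EBA than in IgG. Krt1 and Krt10 went the other way. The estimate thus does not show which library held more free RNA. Over all EBA members Krt10 summed to 4026 CPM, with a cell median of 150 and 44164 in the highest cell. The part of these RNAs in the differences below was not tested, beyond the alternative that subtracts free RNA. No member barcode was shared by the skin libraries, while 6 kept barcodes were.

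Most genes of the cartilage collagens, the fibrils of the matrix, helped choose the cells, and their levels are given as description. Col2a1, the main fibril, measured 2865 and 773 CPM and Acan, aggrecan, 2459 and 1285. Both chose the members, as did Col9a1 (693 and 430.2 CPM) and Sox9, the transcription factor of the chondrocyte programme (739 and 992). The 7 genes that chose the cartilage-gene members follow. Col9a2 stood at 550.0 and 169.6 CPM, Col9a3 at 1889 and 867 and Col11a2, a chain of type XI collagen, at 572 and 287. Hapln1, which links aggrecan to hyaluronan, stood at 579.8 and 253, and Cytl1, a secreted chondrocyte protein, at 8006 and 4183. Snorc, a cartilage proteoglycan, stood at 1515 and 934 and Cnmd, which encodes chondromodulin, at 838 and 495. All 7 EBA sums were above the IgG sum. Together the 7 genes made up a median of 1.42% of UMIs in EBA cells and 0.639% in IgG cells. The part of this gap in the differences of other genes was not tested.

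Genes outside both choices parted. Col11a1, the partner chain of Col11a2, was higher at 1500.2 and 702 CPM (2.14, 1.95 to 2.34), and Mia, a secreted cartilage protein, at 248 and 119 (2.08, 1.67 to 2.6); with equal cell weights neither kept its call. Col27a1, another fibrillar collagen, measured 902 and 767 CPM and was not called. Prg4, lubricin, was higher at 1216 and 427 CPM (2.85, 2.55 to 3.19). Counting all UMIs of each cell, it was found in 73 of 101 EBA and 40 of 79 IgG cells. Its EBA level was above IgG outside these cells too, at 1001 and 196 CPM in the collagen I members. In the other kept skin barcodes it stood at 20.2 and 1.34. Prg4 is also 1 of 7 perichondrium and tendon markers, which summed to 1695 and 888 CPM in the cartilage-gene members. Bgn, biglycan (4429 and 3312 CPM), Fmod, fibromodulin (1221 and 1128), and Sparc, a collagen-binding protein (16759.9 and 10478), were not called.

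The small proteoglycans Dcn and Lum stood lower in EBA. Dcn, decorin, measured 2642 and 6591 CPM (2.49-fold, 2.4 to 2.6), and Lum, lumican, 400.1 and 927 (2.32-fold, 2.09 to 2.58). The cell median of Dcn was 1501 CPM in EBA, with quartiles 403 and 4106, and 3939.6 in IgG, with quartiles 1472 and 8150.2, so the libraries overlapped. With equal cell weights neither gene kept its call. Both are fibroblast markers as well, and the 8 fibroblast markers summed to 6019 and 11501 CPM. Of the others, Pdgfra stood at 90.5 and 109 CPM and Col1a2 at 1483 and 1857. Among 14 measured proteoglycan genes outside both choices 1 was higher and 3 lower, beside 3.54% and 5.73% of all genes. Their median log2 ratio was 0.30.

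Genes that build the sugar chains of proteoglycans were higher for 2 of 16 measured and lower for none. Of all genes 3.54% were higher and 5.73% lower. Papss2, which makes the sulphate donor, measured 133 and 62.6 CPM (2.12, 1.57 to 2.91), and Csgalnact1, which starts chondroitin sulphate chains, 41.4 and 14.8 (2.8, 1.52 to 5.53). Frzb, a Wnt antagonist of cartilage, was higher at 229 and 97.9 CPM (2.34, 1.84 to 2.99). Fgfr3, a growth factor receptor of chondrocytes, measured 361 and 219.6 and was not called. Cilp2, a cartilage intermediate layer protein, was lower at 30.4 and 133 CPM (4.38-fold, 3.1 to 6.29), from 10 EBA and 16 IgG cells.

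**Figure D2:**
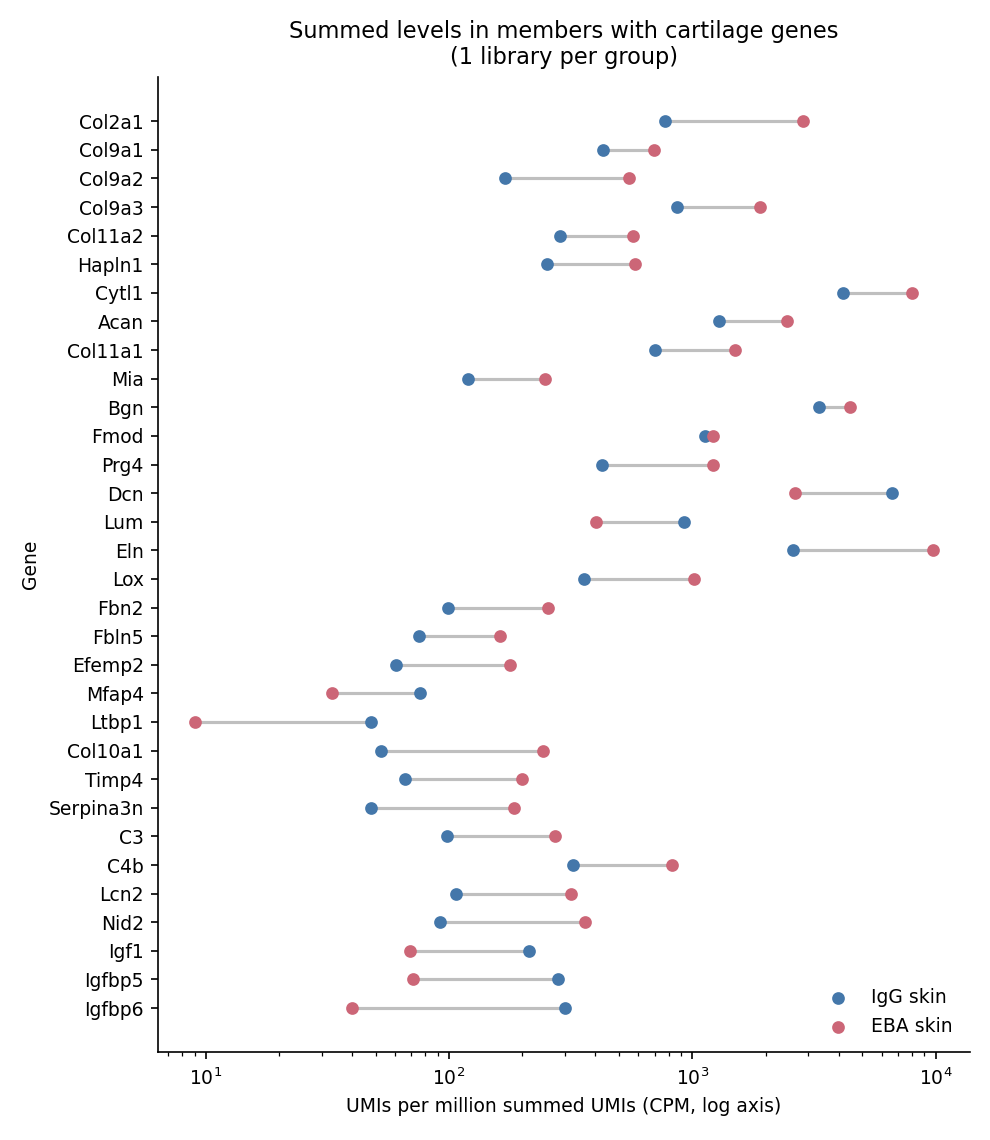
Summed levels of matrix and secreted genes in the cartilage-gene members, in CPM on a log axis, with 1 point for EBA skin (101 cells) and 1 for IgG skin (79 cells). Eln and Col10a1 lie to the right in EBA, and Dcn and Igfbp6 to the left. Col2a1, Acan, Col9a1, Col9a2, Col9a3, Col11a2, Hapln1 and Cytl1 helped choose the cells and are shown as description.

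The elastic fibre list parted in both directions. All 20 genes were measured: EBA was higher for 7 and lower for 4, and 9 had no call, beside 3.54% higher and 5.73% lower of all genes. Their median log2 ratio was 0.06. Eln, elastin, was higher at 9748 and 2604 CPM (3.74, 3.58 to 3.91). Above 1000 CPM stood 49.5% (39.4 to 59.6) of EBA and 39.2% (28.4 to 50.9) of IgG cells. The cell medians were 929.5 and 684 CPM but the upper quartiles 8316 and 2018, so the gap was wider at the upper quartile than at the median. Lox, lysyl oxidase, was higher at 1013 and 358 CPM (2.83, 2.5 to 3.2), with cell medians of 484 and 131. With each cell thinned to 2000 UMIs, called equal depth below, Lox was found in 59.4% (49.2 to 69.1) of EBA and 28.2% (18.6 to 39.5) of IgG cells, and in 0% and 0.15% of keratinocytes, taken as background. Without thinning the shares were 85.1% and 68.4%. Median depth before thinning was 10771 and 8370.5 UMIs in the cartilage-gene members and 37732.5 and 9756 in keratinocytes.

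Higher in the list were also the fibrillin Fbn2 (254 and 99 CPM), the fibulins Fbln5 (162 and 75.1), Efemp2 (178 and 60.3) and Efemp1 (25.9 and 11.4), and the lysyl oxidase relative Loxl3 (57.5 and 28.5). Lower were Ltbp1, which holds latent TGF-beta in the matrix (9.05 and 47.8 CPM), and the microfibril proteins Mfap2 (14.9 and 34.1), Mfap4 (33 and 76.2) and Mfap5 (5.17 and 17.1). Loxl4 (326 and 307) and Emilin1 (231 and 231) were not called. With equal cell weights Fbn2, Loxl3, Efemp1, Mfap4 and Mfap5 lost their call. Outside the list Nid2, a basement membrane protein, was higher at 361 and 92.2 CPM (3.92, 3.1 to 5.01).

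**Figure D3:**
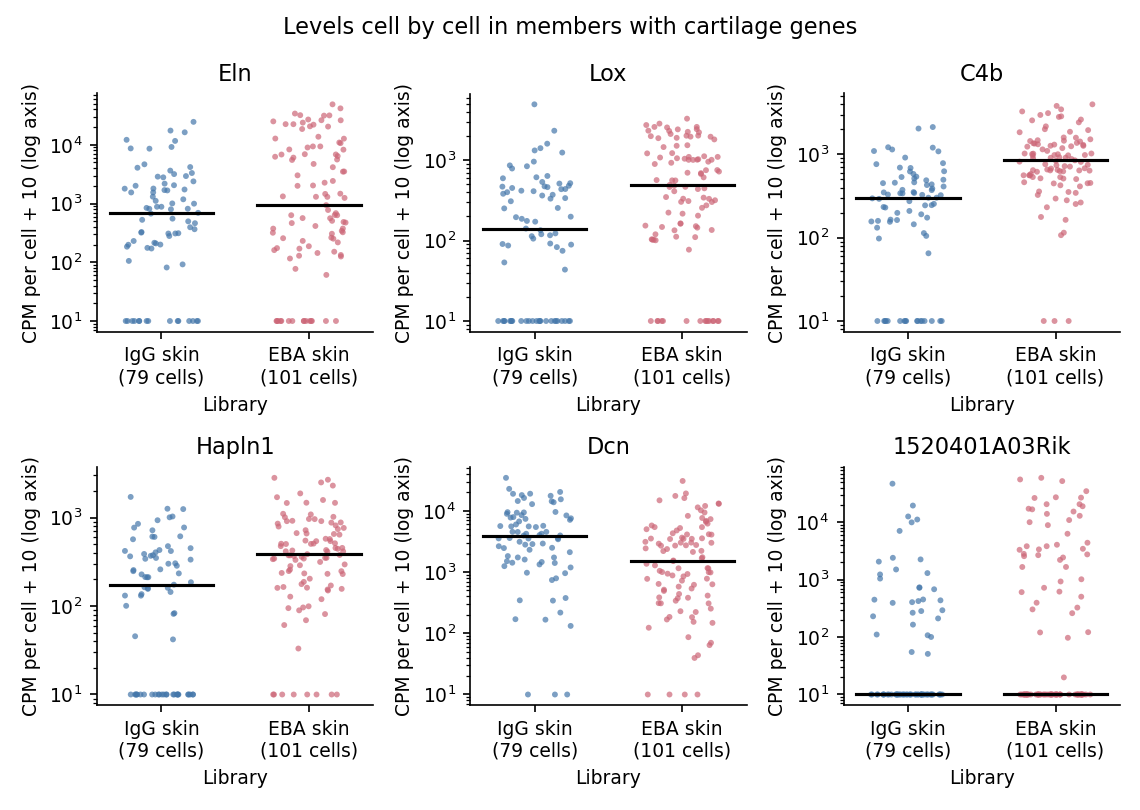
Levels of 6 genes in each cartilage-gene member, in CPM plus 10 on a log axis, for 79 IgG and 101 EBA cells, with medians as black lines. The libraries overlap for every gene. C4b and Lox lie higher in EBA and Dcn lower, while Hapln1 helped choose the cells.

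The gene 1520401A03Rik was found in 48 of 101 EBA and 33 of 79 IgG cells. Above 1000 CPM stood 34.7% (25.5 to 44.8) of EBA and 16.5% (9.06 to 26.5) of IgG cells. Its sums were 8145 and 1844 CPM (4.42, 4.19 to 4.66), with 33.1% of the IgG UMIs in 1 cell. It was thus a gene of some chondrocytes in both libraries, at a higher summed level in EBA.

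Of the hypertrophy and mineral list, genes of maturing cartilage, 5 of 14 were measured and 1 was higher, beside 3.54% of all genes. Col10a1 measured 244 and 52.3 CPM (4.67, 3.43 to 6.48), from 35 EBA and 7 IgG cells, and at equal depth it was found in 11.9% (6.29 to 19.8) and 2.56% (0.312 to 8.96) of cells. In IgG 1 cell held 52.2% of its UMIs. Spp1, osteopontin, measured 2664 and 1518 CPM and was not called, with 45.1% of the IgG UMIs in 1 cell; without the top cell of each library it was higher.

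Complement genes were called higher for 4 of 11 measured and lower for none, beside 3.54% higher of all genes. C4b, of the classical pathway, measured 827 and 323 CPM (2.56, 2.25 to 2.92), with cell medians of 839.5 and 287. At equal depth it was found in 81.2% (72.2 to 88.3) of EBA and 50% (38.5 to 61.5) of IgG cells, against 0% and 0.375% of keratinocytes (unthinned 97% and 78.5%). Reads of C4b may be split with a near-identical neighbour, C4a. C3, on which the complement pathways converge, measured 271 and 97.9 CPM (2.77, 2.19 to 3.54) and was found at equal depth in 33.7% (24.6 to 43.8) and 7.69% (2.88 to 16) of cells. C1s1, a protease of the first component, measured 45.9 and 17.1 CPM (2.69, 1.53 to 5.05). C1qtnf3, a secreted protein that is C1q-related but not a complement component, had 68 UMIs in 16 EBA cells and 1 UMI in IgG. In fibroblasts, here 680 EBA and 454 IgG barcodes with Pdgfra and fibrillar collagen RNA, C4b stood at 214 and 141 CPM and C3 at 458 and 671. Whether the EBA to IgG ratio differs between the cell types was not tested.

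Protease inhibitors were higher for 4 of 11 measured genes and lower for none, beside 3.54% and 5.73% of all genes. Timp4, a metalloproteinase inhibitor, measured 199 and 66 CPM (3.02, 2.27 to 4.07), in 50 EBA and 23 IgG cells. Serpina3n measured 184 and 47.8 CPM (3.85, 2.78 to 5.46), in 42 and 11 cells. Serpine2, another serine protease inhibitor, measured 180.3 and 71.7 (2.52, 1.91 to 3.36). A2m, a broad protease trap, had 67 UMIs in 11 EBA cells and 7 in 2 IgG cells. Timp1 (763 and 470.0 CPM) and Timp3 (1508 and 2352), relatives of Timp4, were not called. Of 15 measured proteases 1 was higher and 4 lower, beside the same shares of all genes, among them the gelatinase Mmp2 at 168 and 359.6 CPM (2.14-fold, 1.81 to 2.53), a call lost with equal cell weights. Mmp3, stromelysin, measured 379 and 254 CPM and was not called, with 59.6% of the IgG UMIs in 1 cell.

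Acute phase genes were mixed, with 2 of 11 measured higher and 2 lower, beside 3.54% and 5.73% of all genes. Lcn2, a lipocalin that binds bacterial iron carriers, was higher at 317 and 107 CPM (2.96, 2.37 to 3.73), in 36 EBA and 9 IgG cells, with 46.8% of the IgG UMIs in 1 cell. At equal depth it was found in 22.8% (15 to 32.2) and 8.97% (3.68 to 17.6) of cells, beside 5.04% and 0% of keratinocytes. Chil1, a chitinase-like protein of cartilage, measured 2333 and 1980.2 CPM and was not called. The serum amyloid gene Saa3 (3.88 and 3.41 CPM) and haptoglobin, Hp (1.94 and 1.14), were under 10 CPM in these cells, while in fibroblasts Saa3 stood at 1774 and 246 and Hp at 992 and 7.7.

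**Figure D4:**
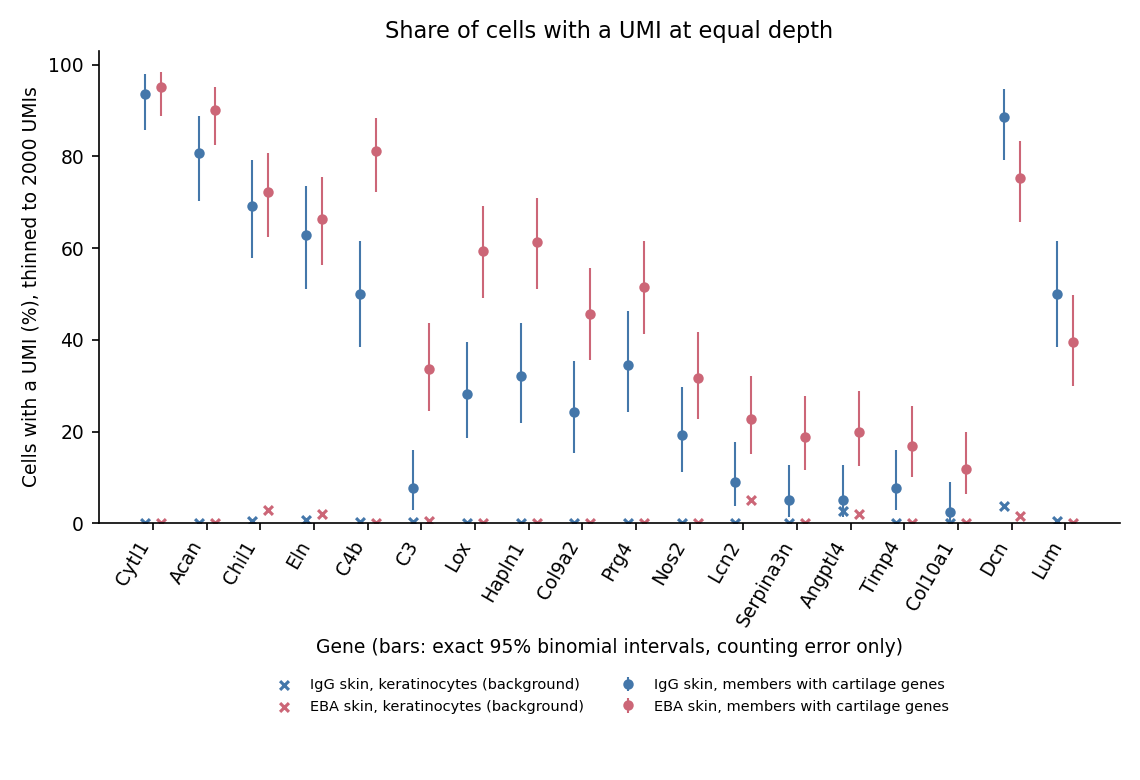
Percent of cells with at least 1 UMI of each gene after thinning to 2000 UMIs per cell. Acan, Cytl1, Hapln1 and Col9a2 helped choose the cells and are shown as description. Circles are cartilage-gene members (101 EBA and 78 IgG cells) with exact 95% binomial intervals, and crosses are keratinocytes of the same library; C4b, C3 and Lox lie apart between EBA and IgG, while Eln and Chil1 overlap.

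Inflammatory mediators were found in chondrocytes of both libraries. Lif, a cytokine of the interleukin 6 family, measured 782 and 720.4 CPM, and at equal depth it was found in 47.5% (37.5 to 57.7) and 46.2% (34.8 to 57.8) of cells, against 0% and 0.30% of keratinocytes. Cxcl1, a neutrophil chemokine, measured 2852 and 2023 CPM, and Ptgs2, the inducible cyclooxygenase, 787 and 652. Nos2, the inducible nitric oxide synthase, measured 632 and 343 (1.85, 1.62 to 2.11) and was found at equal depth in 31.7% (22.8 to 41.7) and 19.2% (11.2 to 29.7) of cells, against 0% and 0.0749% of keratinocytes. None of these 4 was called.

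Of 24 measured cytokine and mediator genes 6 were higher and 2 lower, beside 3.54% and 5.73% of all genes. Cxcl10, a T cell chemokine, was higher in the sum at 853 and 263 CPM (3.24, 2.82 to 3.75), from 24 EBA and 12 IgG cells. At equal depth its shares were 12.9% (7.04 to 21) and 12.8% (6.32 to 22.3), beside 7.14% and 2.55% of keratinocytes, and with equal cell weights the call was lost. Csf2, which encodes GM-CSF, had 64 UMIs in 4 EBA cells and 5 in 1 IgG cell. Ccl5, another T cell chemokine, had 93 UMIs in 3 EBA cells and 12 in 1 IgG cell. The last 2 calls rest on few cells.

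The NF-kB list was near even, with 2 of 25 measured genes higher, 1 lower and 22 without a call. Its median log2 ratio was -0.04 beside -0.14 over all genes, of which 3.54% were higher and 5.73% lower. Ier3 measured 3089 and 3189.9 CPM, Nfkbia, the inhibitor that NF-kB induces, 2171 and 2233, and Nfkb1, a subunit of the factor, 711 and 893. Icam1, an adhesion molecule for leukocytes, measured 1822 and 2372. Tnfaip6, a hyaluronan-binding protein, was higher at 112 and 37.6 CPM (2.99, 2.05 to 4.49), in 24 EBA and 16 IgG cells. Vcam1, another adhesion molecule, was lower at 115 and 277 CPM (2.4-fold, 1.97 to 2.93), a call lost with equal cell weights. No gene was called among 9 measured interferon, 28 hypoxia and glycolysis and 29 secretion genes, beside the same shares of all genes.

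Igf1 and several of its binding proteins were lower in EBA. Of 12 measured genes of the IGF and CCN list 6 were lower, none higher and 6 without a call, beside 5.73% lower of all genes, with a median log2 ratio of -0.72. Igf1, the growth factor, measured 69.2 and 214 CPM (3.09-fold, 2.43 to 3.96), in 33 EBA and 43 IgG cells. Its binding proteins Igfbp5 (71.1 and 280.0 CPM, 3.94-fold, 3.13 to 4.98) and Igfbp6 (40.1 and 300.4, 7.5-fold, 5.67 to 10.1) were lower too. Igfbp6 came from 18 EBA and 21 IgG cells, with 35.2% of the IgG UMIs in 1. Also lower were Igfbp2 (41.4 and 108 CPM) and the heparin-binding factor Ptn (125 and 263), which lost its call with equal cell weights. Igfbp3 (7.76 and 53.5) rests on 6 EBA and 3 IgG cells and turned direction under stricter limits on cells. Ctgf, a matrix growth regulator, measured 3592 and 3906 CPM and was not called. In fibroblasts Igfbp6 stood at 89.1 and 424 CPM and Igf1 at 303 and 332.

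Other large differences lay outside the lists. Tgm2, a cross-linking transglutaminase, was higher at 197 and 62.6 CPM (3.15, 2.36 to 4.28). Angptl4, an inhibitor of lipoprotein lipase, was higher at 179.7 and 31.9 (5.64, 3.82 to 8.64), in 45 EBA and 12 IgG cells, with 57.1% of the IgG UMIs in 1. Lower were Wfdc2, a secreted protein (71.1 and 321 CPM, 4.51-fold, 3.61 to 5.68), Angptl7, a secreted relative of Angptl4 (42.7 and 162, 3.79-fold, 2.81 to 5.15), and Itgbl1, an integrin-like secreted protein (18.7 and 110.4, 5.89-fold, 3.85 to 9.25). Thbs1, a thrombospondin, was lower at 196 and 517 CPM (2.63-fold, 2.27 to 3.05), a call lost with equal cell weights.

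Cell cycle genes were lower, from few cells. Of 13 measured 9 were lower and none higher, beside 5.73% and 3.54% of all genes, with a median log2 ratio of -2.62. Mki67, the proliferation marker, had no UMI in EBA and 23 in 3 IgG cells, 73.9% of them in 1. Top2a, a mitotic topoisomerase, stood at 1.94 and 36.4 CPM, with 78.1% of the IgG UMIs in 1 cell. Without the top cell of each library neither was called. At equal depth Mki67 was found in no cell of either library, an exact upper limit of 3.59% and 4.62% of cells. Only 3 genes of the list were then measured. The heat shock genes Hspa1a (428 and 158 CPM) and Hspa1b (482 and 185), near-identical copies, were higher in the sum, with 50.9% and 46.9% of the EBA UMIs in 1 cell, and were not called without it.

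**Figure D5:**
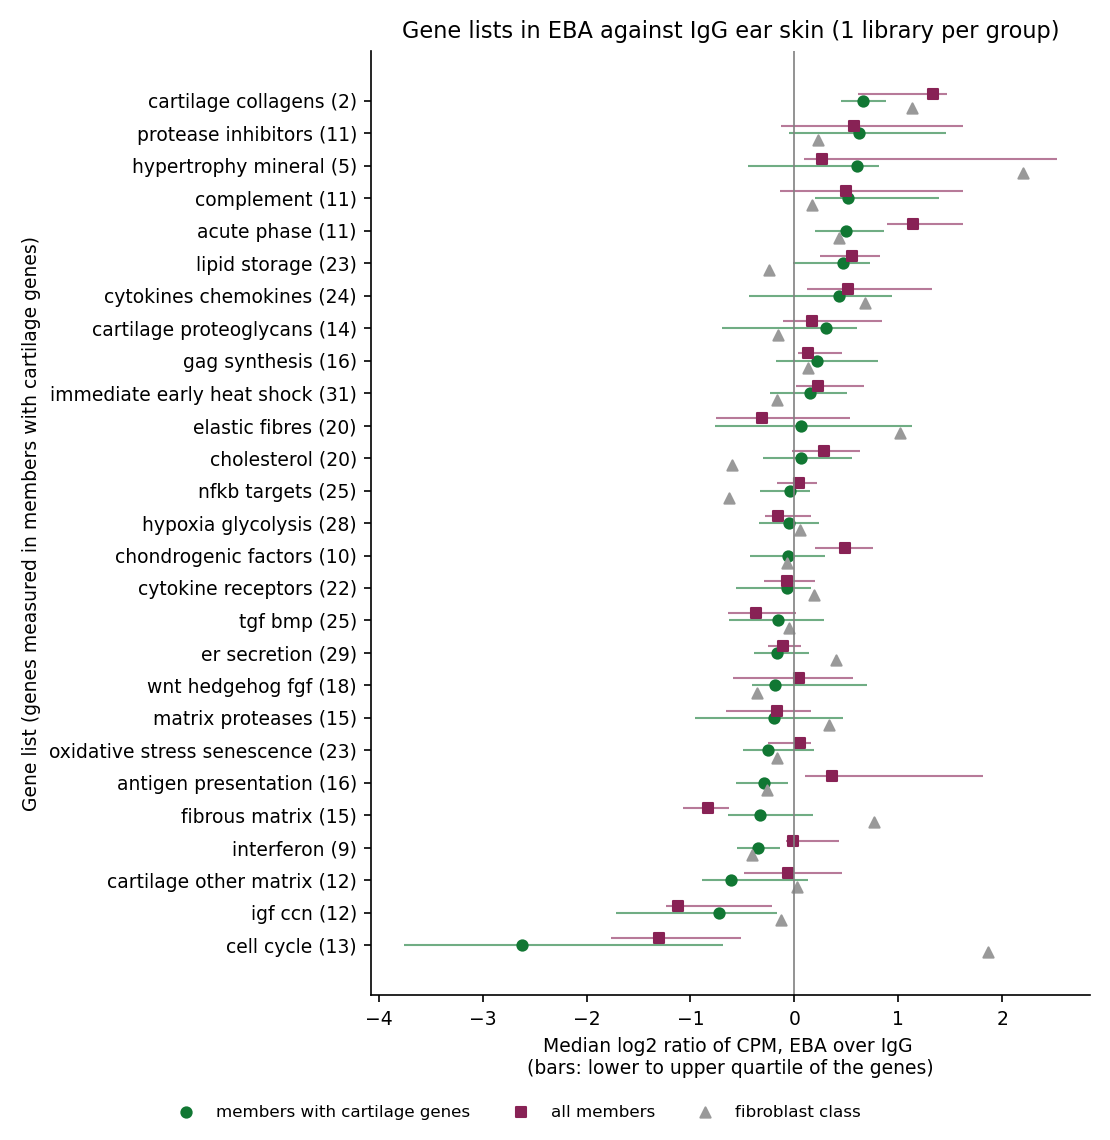
Median log2 ratio of CPM, EBA over IgG, for each gene list in cartilage-gene members, in all members of the rule and in fibroblasts, with bars from the lower to the upper quartile of genes for both groups of members. Genes that chose the cells are left out; in cartilage-gene members the NF-kB list lies at -0.04 and the IGF and CCN list at -0.72.

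Over all 290 members the cartilage-gene and collagen I members were summed together. The collagen I members made up 43.6% (35.2 to 52.2) of the IgG and 32.7% (25.2 to 40.8) of the EBA members, so the intervals overlap. The part of this mix in the differences was not tested. Among 8385 measured genes 368 were higher (4.39%) and 371 lower (4.42%). In the fibrous matrix list 6 of 17 measured genes were lower and none higher, with Col1a1 at 4148 and 8700.1 CPM and Thbs4, a thrombospondin of tendon, at 57.6 and 526. Postn, periostin, was lower at 1112 and 2593 CPM, but in the cartilage-gene members alone it stood at 95 and 63.7 and was not called. Of 13 measured acute phase genes 8 were higher and none lower, with Lcn2 at 608 and 49 CPM, Saa3 at 244 and 3.3 and Hp at 98.5 and 0.471. Over all members Eln, C4b, Lcn2, Saa3, Hp and Igfbp6 kept their call in all 14 alternatives counted for them, while within the collagen I members alone Igfbp6 stood at 119.9 and 105 CPM.

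Within the collagen I members alone 574 of 8675 measured genes were higher (6.62%) and 385 lower (4.44%). There Lcn2 measured 937 and 8.04 CPM, from 17 of 49 EBA cells, 1 of which held 53.6% of its UMIs. Saa3 measured 516 and 3.22 CPM, from 11 EBA cells (32.4% in 1), and Hp 208 and 0, from 13 (35.2% in 1). Spp1 measured 5089 and 52.3, from 32 EBA cells (22.7% in 1). The Lcn2 sum thus came largely from 1 EBA cell, while Spp1 was found in most EBA cells. The deepest EBA cell held 11.1% of all UMIs, and 0.0046% of its own UMIs were type I and III collagen RNA. Krt6b, a keratin of wounded epidermis, stood at 953 and 0.804 and Cd207, the Langerhans cell marker, at 231 and 0.804, with 98.1% and 99.7% of the EBA UMIs in 1 cell. The 8 keratinocyte markers summed to 13621 and 2902 CPM in these cells. Of them Krt5 (178 and 265 CPM) and Krt15 (44.6 and 207) stood lower in EBA, and the others higher. Among the collagen I members 3 EBA cells and 1 IgG cell held over 1% of UMIs from the keratins Krt1 and Krt10. Their part in the differences over all members was not tested, beyond the values given without them.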

How the data were processed

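Cells of ear skin and blood were profiled with 10x 3' single-cell RNA sequencing. The deposited matrices hold raw UMI counts per gene and barcode, made by the authors with Cell Ranger 3.0.0 against mm10, and Seurat 3.0.0 and 3.1.0 are also named, per the submitters' processing notes. The members, the gene lists and the alternatives were chosen with earlier results of these data known, and the 0.1% limit after values were seen. Counts were summed per library over members and given as CPM, with exact conditional 95% intervals of the ratio (numpy 2.4.6, scipy 1.17.1, pandas 2.3.3, and scanpy 1.11.5 for clustering, matplotlib 3.10.9 for plots). Calls needed 10 UMIs over both sums, 10 CPM in the higher, a 2-fold difference and an interval without 1. The calling step was tested on simulated sums that held counting error only. They had no differences between cells or mice, so the test cannot show how the calls hold against those. Genes named are the 12 ranked highest and lowest among called genes of at least 100 CPM, the called and the 4 most abundant genes of each list, and 12 marker genes; others were chosen after their values were seen. Fibroblasts were barcodes with at least 1 UMI of Pdgfra and 10 of fibrillar collagens. Doublets were kept; in an alternative the top Scrublet scores were removed (228 IgG and 147 EBA barcodes, holding 4 and 2 members), since automatic calls marked only 4 and 9. Shares of cells were compared after thinning each cell to 2000 UMIs.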

Additional observations from a re-analysis of the deposited data

Results flagged for a closer look

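Among the genes named for the cartilage-gene members, 12 differed in opposite directions between EBA and IgG in these cells and in fibroblasts. With 1 library per group the difference was not tested for any of them. Values are log2 ratios of EBA over IgG, chondrocytes first and fibroblasts second.

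Fibin, a secreted protein, stood at -1.30 and 3.18. Mfap4, a microfibril protein, stood at -1.21 and 1.46, and Thbs4, a thrombospondin, at -1.37 and 1.02. Smad6, an inhibitor of BMP signalling, stood the other way, at 1.04 and -1.48. Lyz2 stood at -5.12 and 2.19, with 86.7% of the IgG chondrocyte UMIs in 1 cell.

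The other 7 are cell cycle genes. They were Stmn1 (-3.47 and 1.60), Tyms (-1.59 and 1.70), Mki67 (-3.75 and 2.38, the first against a floor of 3 counts over the EBA cells), Cdk1 (-2.62 and 2.70), Top2a (-4.23 and 2.29), Birc5 (-3.04 and 3.23) and Rrm2 (-3.82 and 1.60). In the chondrocytes each rests on few cells, such as 3 IgG cells with Mki67 and 4 with Birc5.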

How the results depend on the processing

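No paired analysis was possible because the groups share fewer than 2 replicate numbers, with 1 library each; for the same reason no replicate could be left out. Over all members the counts of genes higher and lower (368 and 371) were 557 and 582 with no minimum CPM, 130 and 92 with a minimum of 50 UMIs and 50 CPM, and 181 and 210 with cells thinned to 2000 UMIs. With free RNA subtracted 753 were lower, and within the collagen I members 574 were higher. In the cartilage-gene members (285 and 461) they were 90 and 117 with the minimum of 50, 125 and 162 when thinned, and 305 lower without the top cell of each gene. Relative to the median of all genes they were 420 and 322. The member share was 2.53% in EBA with a mitochondrial limit of 5%, 2.01% in IgG and 2.69% in EBA with 10 or more chondrocyte UMIs, 3.85% and 6.41% of barcodes low in Krt5 and Krt14 without Ptprc, and 1.48% and 2.36% with cartilage-gene members only. Among the named genes and list medians, directions turned as follows, on the log2 scale. Over all members Postn was at 0.58 in the cartilage-gene members, and Igfbp6 at 0.20 and the median of cartilage collagens at -0.55 in the collagen I members. In the cartilage-gene members Igfbp3 was at 0.51 with a mitochondrial limit of 5% and at 1.04 with Krt5 and Krt14 under 0.2%. When thinned, Mfap2 was at 0.042 and Smad6 at -0.15, and the cell cycle median at 0.41, from only 3 measured genes, which shows no turned direction. No ratio is given where both sums held 3 UMIs or fewer. Fabp5 was at -3.72 with free RNA subtracted. There no EBA UMI was left, so this value is against a floor of 3 counts and shows no turned direction. Of all called genes, 31 over all members and 15 in the cartilage-gene members turned with members taken by cluster, 26 and 14 with Krt1 and Krt10 at 1% or less, and 7 with a cartilage limit of 0.3%. The causes were not tested. The alternatives that leave out the deepest cell or the top cell of a gene, limit Krt1 and Krt10, or split members by cartilage genes were chosen after seeing the data. Depth limits low genes: thinning left 4446 of 8046 genes measured.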

Other observations

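Chondrocytes of the outer ear can store fat, and lipid genes were measured in the cartilage-gene members of both libraries. G0s2, an inhibitor of the main triglyceride lipase, stood at 3312 and 2661 CPM (EBA first, IgG second), in 62 of 101 and 47 of 79 cells, and was not called. Scd1, which desaturates fatty acids, stood at 1130.5 and 603 (1.87, 1.7 to 2.07), and Dgat2, which completes triglycerides, at 301 and 196. Fasn, fatty acid synthase, was higher at 138 and 67.1 CPM (2.06, 1.54 to 2.8), a call lost with equal cell weights. Pnpla2, the lipase that G0s2 inhibits, was lower at 13.6 and 34.1 CPM (2.52-fold, 1.39 to 4.62). Fabp5, a fatty acid carrier, was higher at 339 and 133 CPM, while the other kept skin barcodes held 6851 and 1540.2. Subtracting free RNA took away more than its whole EBA sum, so its direction without free RNA cannot be told. In all, 3 of 23 measured lipid genes were higher and 1 lower, beside 3.54% and 5.73% of all genes. Their median log2 ratio was 0.47. The adipocyte markers summed to 0 CPM in EBA and 1.14 in IgG.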
